A study of Homo sapiens with 15 samples.

Results

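The genes described here encode proteins of the mesenchymal extracellular matrix, matricellular proteins that bind to that matrix, and proteins that mark mesenchymal cells. They were chosen by name: POSTN, DCN, LUM, VIM, THY1, CCDC80, SPARC, TNC and LOX were found in both the count table and the TPM table by their GENCODE symbol, which gave 9 genes of 48777 in all, and FN1 of the same list was not analysed here. The libraries came from H1, a human embryonic stem cell line in wide use, taken through cardiac differentiation in dishes coated with the laminins LN-521 and LN-221, with 3 biological replicates on each of days 0, 4, 9, 11 and 20. Day 0 held undifferentiated cells in Nutristem medium. Over the later days the cells went from that medium to RPMI 1640 with B27 without insulin. The Wnt pathway activator CHIR99021 and later the Wnt secretion inhibitor IWP2 were added, and from day 11 the medium was RPMI 1640 with CTS B-27. The growth and treatment texts of the labels give different days for these 2 agents. The study's methods put the first RPMI 1640, with CHIR99021, at confluence on day 4. They do not say whether the day 4 cells were taken before it. The study's methods list day 7 in place of day 9 for the bulk libraries, and the deposited sample table lists LN-521 alone for day 0. All libraries came from a single line, and the titles of the later libraries name plate 1, 2, 5 or 6, except for a library of day 9 whose title names no plate.

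Mesenchymal cells leave epithelial sheets during gastrulation and heart formation, change their intermediate filaments to vimentin and lay down a fibrillar matrix. In that matrix, small leucine-rich proteoglycans such as decorin and lumican sit on collagen fibrils and limit their width, lysyl oxidase cross-links collagen and elastin, and matricellular proteins such as periostin, tenascin C and SPARC tune how cells adhere to it. In the heart these genes are best known from valve mesenchyme, epicardium-derived cells and fibroblasts, rather than from the muscle cells.

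Depth ran from 11990302 to 33469703 counted reads a library. The deposited TPM are a level per gene length, scaled to the same total in each library. CPM below are read counts scaled to library size by TMM, with no gene length in them. The summed CPM of 6 pluripotency markers was 7761 to 10550 on day 0, 7544 to 9187 on day 4 and 54.7 to 144 on day 20. That of 8 cardiomyocyte markers was 18.3 to 25.3, 13.55 to 20.5 and 6088 to 28110 on those days. A library of day 20, labelled Plate_2_3, stood apart: its RNA integrity number was 6.1 against 8.8 to 10.0 elsewhere, and it had reads on all 174 long coding genes that were silent on days 0 to 11, at a median of 10.951 reads per kb. At that density such background reads would make up 39.3% of its THY1 counts, 17.2% for DCN, 14.9% for LOX and 0.668% to 10.6% for the other members. The expected share was at most 0.454% for any member in the other libraries of day 20. In such bulk libraries, fewer cells of a type and less RNA per cell cannot be told apart.

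In GENCODE v44 on GRCh38 the genes lie on 7 chromosomes. LUM (chromosome 12, 91102629 to 91111494) and DCN (chromosome 12, 91140484 to 91183217) lie closest together, both on the minus strand and 28989 bases apart. SPARC (151661096 to 151686975) and LOX (122063195 to 122078413) are both on chromosome 5. POSTN is on chromosome 13 (37562583 to 37598844), VIM on chromosome 10 (17228241 to 17237593), THY1 on chromosome 11 (119415476 to 119424985), CCDC80 on chromosome 3 (112596797 to 112649530) and TNC on chromosome 9 (115019575 to 115118207). Exons of VIM, THY1, SPARC, TNC and LOX overlap those of genes on the other strand, and the sources used here do not say whether counting used the strand. For LOX that gene is SRFBP1, which shares 138 bases and reached 2217 counts in a library, beside a maximum of 2668 for LOX. The genes overlapping the other 4 had at most 106 counts where they were counted.

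RefSeq promoter sequence on GRCh38.p14 was matched for 6 of the 9 genes, POSTN, LOX, VIM, SPARC, TNC and CCDC80. Sequences are shown for the 2 pairs of members whose centred log2(CPM + 1) values differed least over the 15 libraries. POSTN and LOX differed by 0.97 (root mean square), and VIM and SPARC by 1.08. SPARC itself had an SD of 1.16 on that scale, so its small difference from VIM does not show a shared course. Each stretch runs 5′ to 3′ on the strand of the gene and ends before the first annotated exon base or at the start site. POSTN is chr13:37598845-37599018 on the minus strand, LOX chr5:122078414-122078509 on the minus strand, VIM chr10:17227991-17228240 on the plus strand and SPARC chr5:151686976-151687165 on the minus strand. Capitals mark a match, on either strand, to the box motif TATAAA, the AP-1 motif TGANTCA, the TEAD motif GGAATG, the SMAD motif CAGAC or the E-box motif CANNTG.
POSTN: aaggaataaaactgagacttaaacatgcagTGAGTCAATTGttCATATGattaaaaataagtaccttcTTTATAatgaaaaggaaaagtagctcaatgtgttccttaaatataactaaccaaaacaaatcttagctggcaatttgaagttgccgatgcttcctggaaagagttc
LOX: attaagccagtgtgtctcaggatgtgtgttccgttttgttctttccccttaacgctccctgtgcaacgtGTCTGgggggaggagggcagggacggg
VIM: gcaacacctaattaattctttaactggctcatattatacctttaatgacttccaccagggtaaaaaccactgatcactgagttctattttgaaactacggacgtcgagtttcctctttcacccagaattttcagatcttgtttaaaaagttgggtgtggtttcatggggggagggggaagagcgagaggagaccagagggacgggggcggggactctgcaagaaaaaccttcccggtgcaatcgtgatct
SPARC: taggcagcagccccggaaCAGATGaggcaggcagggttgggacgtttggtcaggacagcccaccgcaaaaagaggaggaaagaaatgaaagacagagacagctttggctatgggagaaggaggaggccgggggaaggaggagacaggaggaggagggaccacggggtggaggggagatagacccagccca

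The POSTN stretch holds an AP-1 match that overlaps an E-box match, a separate E-box match and a TATA box match on the other strand. The LOX stretch holds a single SMAD match, the SPARC stretch a single E-box match, and the VIM stretch none of the 5. Over the 250 bases before the start site, TATAAA was in 10.7% of all 35116 RefSeq promoters, TGANTCA in 6.57%, GGAATG in 11.9%, CAGAC in 38% and CANNTG in 61.8%. Among the 6 matched members, POSTN alone had a TATA box match (2 matches) or an AP-1 match, and the members in a pair shared no motif except CAGAC, which both POSTN and LOX hold in the 250 bases. These matches are descriptions of the letters.

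VIM encodes vimentin, the intermediate filament protein of mesenchymal cells. Its TPM was 137, 49.7 and 70.3 on day 0, 126, 85.3 and 89.3 on day 4, and 1206, 1737 and 1127 on day 9. The day 9 libraries all lay far above those of days 0 and 4. On day 11 the plate 2, plate 5 and plate 6 libraries held 790, 371 and 973 TPM, and on day 20 the plate 2, Plate_2_3 and plate 6 libraries held 355, 257 and 755. All 3 libraries of day 11 were thus below those of day 9, while days 11 and 20 overlapped.

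THY1, also called CD90, is a surface glycoprotein that is carried by pluripotent stem cells as well as by mesenchymal cells and fibroblasts. It ran the other way from VIM: 60.3, 135 and 38.6 TPM on day 0 and 41.8, 73.8 and 74.3 on day 4 were followed by 12.8, 14.2 and 17.2 on day 9. Every later library but 1 stayed below 10 TPM, with 8.34, 6.83 and 3.99 on day 11 and 8.02, 7.10 and 33.6 on day 20. The exception was the plate 6 library of day 20.

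SPARC, a secreted collagen-binding glycoprotein, was the highest of the 9 genes per length on days 0, 4, 11 and 20. On days 0 and 4 its 6 libraries held 264 to 393 TPM, above every library of every other member. On day 9 it reached 710, 963 and 1158 TPM and on day 11 873, 739 and 1656. On day 20 the libraries parted to 1021, 418 and 4422 TPM, the highest again being plate 6 and the lowest Plate_2_3.

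TNC encodes tenascin C, an anti-adhesive hexameric glycoprotein of embryonic and wounded tissue. It held 1.39 to 11.2 TPM in the 6 libraries of days 0 and 4, and 265, 481 and 361 TPM on day 9. Day 11 (260, 290 and 187 TPM) overlapped with day 9 in TPM, though not in CPM, and day 20 (86.1, 34.1 and 132 TPM) lay below both. On day 11 its replicates were the tightest of the 9 genes, with the highest library at 1.55 times the lowest.

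POSTN encodes periostin, a matricellular protein of valve mesenchyme and activated fibroblasts. It was a low gene up to day 9, at 0.943 to 2.77 TPM on day 0, 0.464 to 3.10 on day 4 and 0.408 to 1.07 on day 9. On day 11 the plate 2 and plate 6 libraries held 8.42 and 4.39 TPM, but the plate 5 library 0.564, as low as on day 9. On day 20 it held 32.1, 26.6 and 388 TPM, all above day 11, and the plate 6 library held 14.6 times as much as the lowest.

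CCDC80 encodes a secreted protein that binds to the matrix, and the study named it in its day 11 signature from these same libraries, so its rise to day 11 is not independent of that choice. In the study's qPCR and immunoblots of different differentiation batches, CCDC80 was among the exceptions without a significant increase from day 9 to day 11. It held 2.96 to 7.51 TPM on days 0 and 4 and 11.7, 29.0 and 8.41 TPM on day 9. On day 11 it reached 197, 310 and 152 TPM, and on day 20 it held 47.0, 26.3 and 65.4. The study describes the expression of its signature genes as maintained on day 20. It was the member whose libraries peaked on day 11, clear of those of day 9 and of day 20.

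LUM encodes lumican, a keratan sulphate proteoglycan of collagen fibrils. All libraries of days 0 and 4 were below 1 TPM, at 0.144 to 0.943. On day 9 it held 46.6, 535 and 8.28 TPM, a range of 64.6 times between replicates of the same day, with plate 6 highest and the library with no plate in its title lowest. On day 11 the order was plate 6 (1569 TPM), plate 2 (345 TPM) and plate 5 (52.8 TPM). On day 20 the plate 6 library held 2272 TPM and each of the others 206.

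DCN encodes decorin, the dermatan sulphate proteoglycan that binds collagen fibrils and TGF-beta. It had 1 to 12 counts in each library of days 0 and 4, below 0.15 TPM. On day 9 it held 0.142, 0.884 and 0.0527 TPM and on day 11 5.18, 0.225 and 15.5, with plate 6 highest on both days. On day 20 it held 8.57, 16.3 and 353 TPM, so that most of its day 20 signal came from the plate 6 library. Plate_2_3 and plate 2 changed places between scales, with 27.6 and 28.7 CPM.

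LOX encodes lysyl oxidase, the enzyme that starts the cross-linking of collagen and elastin. It held 2.41 to 4.98 TPM on days 0 and 4. On day 9 the plate 6 library held 4.19 TPM and the others 0.629 and 0.520. Day 11 gave 9.13, 3.77 and 17.2 TPM and day 20 gave 57.6, 18.8 and 110, all of the latter above all of the former in TPM. In CPM the Plate_2_3 library fell among those of day 11, and the 2 days overlapped.

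**Figure D1:**
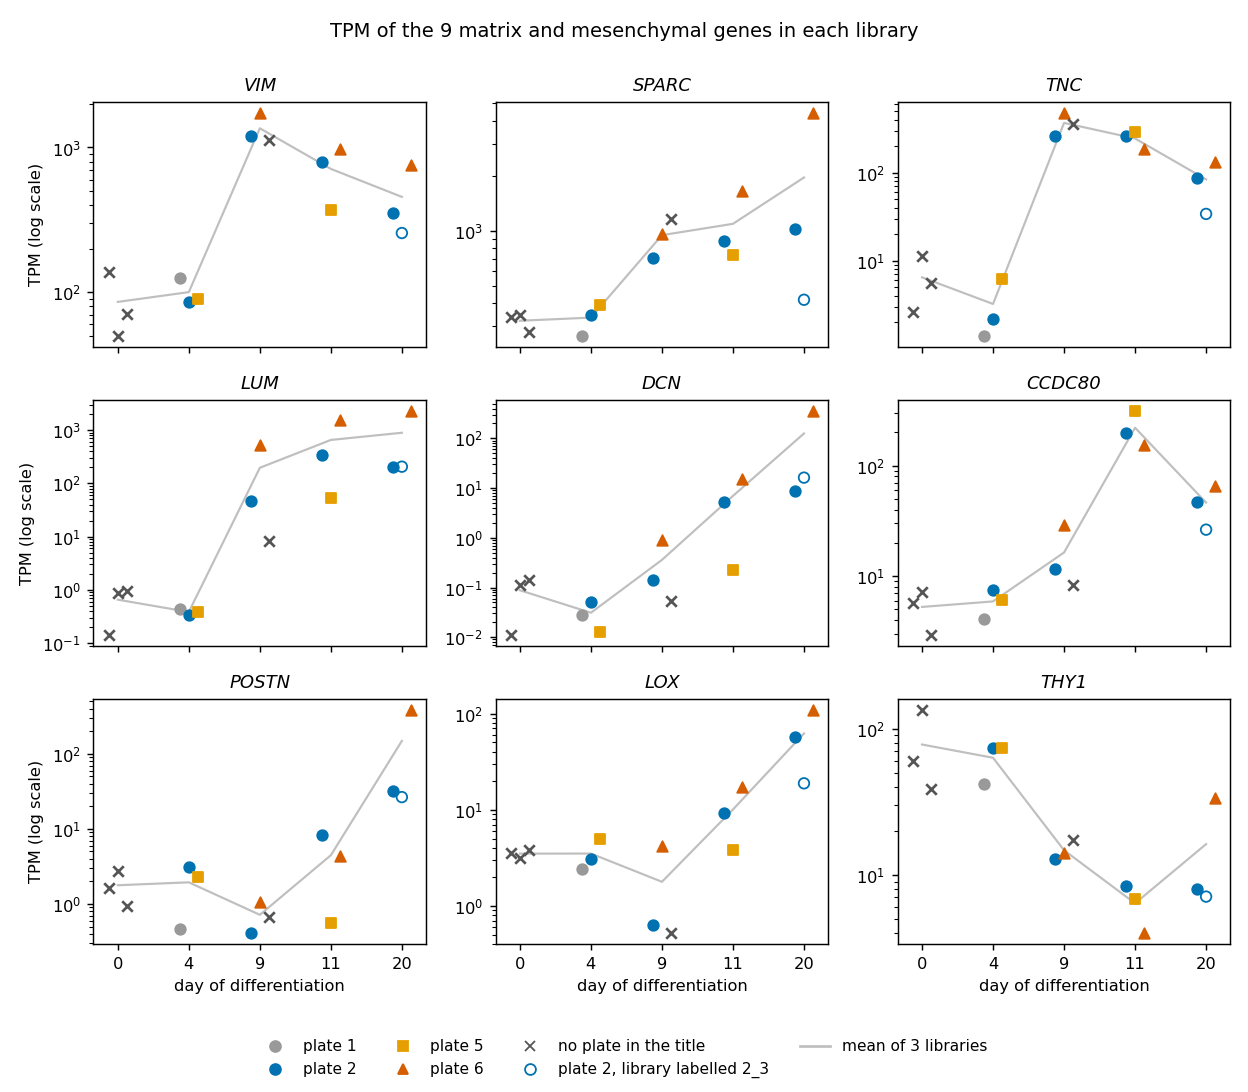
TPM on a log scale (vertical axis) of each of the 9 genes in each of the 15 libraries, by day of differentiation (horizontal axis), with symbols for the plate named in the title and a grey line through the daily means. VIM, TNC and LUM stand higher on day 9 than on day 4 in every library, CCDC80 stands highest on day 11, THY1 falls, and the orange triangles of plate 6 are the highest points of day 20 in all 9 panels.

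The order of levels changed with the days. On day 0 it ran from SPARC (321 ± 35.4 TPM, SD, n = 3) through VIM (85.8 ± 45.9), THY1 (78.0 ± 50.5), TNC (6.49 ± 4.36), CCDC80 (5.27 ± 2.13), LOX (3.49 ± 0.305) and POSTN (1.77 ± 0.925) to LUM (0.655 ± 0.444) and DCN (0.0880 ± 0.0680). VIM and THY1 did not differ beyond their spread there, nor did TNC and CCDC80 or CCDC80 and LOX. On day 9 VIM (1357 ± 332 TPM) and SPARC (944 ± 224 TPM) led and overlapped, both above TNC (369 ± 108 TPM). By day 9 VIM was the gene with rank 72 by mean TPM of all genes, from rank 1691 on day 4. On day 20 the 9 genes ran from SPARC (1953 ± 2159 TPM) to THY1 (16.2 TPM, range 7.10 to 33.6), and every neighbouring pair in that order overlapped between libraries.

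Day 4 was compared with day 0 to see what changed before day 9. None of the 9 genes passed the threshold: 7 could be tested, with log2 fold changes between −1.10 (TNC, standard error 0.69) and 0.18 (VIM, standard error 0.33) and adjusted p-values of 0.885 to 0.991 in edgeR's quasi-likelihood test. DCN and LUM had too few counts on both days to pass the filter. All 9 overlapped between the days, while 9.64% of all genes tested did not. Of 20964 genes, 0 passed the adjusted threshold of 0.05 (0% of the background), 741 had an unadjusted p-value under 0.05, and DESeq2 also called 0. No member had an unadjusted p-value under 0.05.

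Most calls among neighbouring days lay between day 4 and day 9. LUM, TNC, VIM, SPARC and CCDC80 rose and THY1 fell, which is 6 of the 8 genes tested, beside 49% of all 21252 genes tested (24.3% higher, 24.7% lower). Replicates did not overlap for 7 of the 9, DCN among them, beside 58.5% of all genes. The median log2 fold change of the 8 genes was 1.49, against 0.01 over all genes tested. LUM rose 470-fold (log2 fold change 8.88, standard error 1.83, adjusted p = 0.00606) and TNC 115-fold (6.85, standard error 0.61, adjusted p = 0.000104). The LUM fold started from 24 counts over the 3 libraries of day 4, against 9666 over day 9. Its ratio per library total was 490 (exact interval 329 to 765, counting error only). With limma on log2(TPM + 1) the log2 fold change of LUM was 5.48. VIM rose 13.6-fold (3.76, standard error 0.22, adjusted p = 7.97e-06), from an already high level. SPARC and CCDC80 rose by less, 2.87-fold (1.52, standard error 0.21, adjusted p = 0.00058) and 2.73-fold (1.45, standard error 0.42, adjusted p = 0.0227). THY1 fell 4.22-fold, by 2.08 on the log2 scale (standard error 0.24, adjusted p = 0.000285).

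POSTN and LOX did not pass the threshold in that step, with log2 fold changes of −1.40 (standard error 0.65, adjusted p = 0.11) and −1.02 (standard error 0.71, adjusted p = 0.267), both below 0 while LUM, TNC and VIM rose. DCN was not tested, with 8 counts over the 3 libraries of day 4 and 76 over those of day 9, a ratio per library total of 11.6 (exact interval 5.58 to 27.7, counting error only). Without the plate 6 library of day 9 the log2 fold change of LUM was 6.21 and that of LOX −2.51 (adjusted p = 0.000874), and without the plate 5 library of day 4 that of TNC was 7.69. POSTN passed the threshold without the plate 1 library of day 4 (−1.89, adjusted p = 0.00674), and LOX with the sequencing lane as a term (−1.45, adjusted p = 0.0332). The call of CCDC80 was lost without the plate 1 or the plate 5 library of day 4 (adjusted p = 0.0824 and 0.0639), those of LUM and CCDC80 without a low count filter (0.0632 and 0.15), and that of SPARC in a fit of all 15 libraries (0.118).

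The study set day 11 against day 9 to find what marks the day 11 progenitors. Of the 9 genes, CCDC80 alone rose, 13.2-fold (log2 fold change 3.72, standard error 0.49, adjusted p = 0.02), beside 2.39% of all 20679 genes (1.39% higher, 1% lower). DCN, POSTN and LOX gave large but loosely set log2 fold changes of 4.32 (standard error 1.47), 2.60 (standard error 0.86) and 2.53 (standard error 0.87), with adjusted p-values of 0.18 to 0.198. The 3 of them were lowest on day 11 in the plate 5 library. VIM, THY1 and TNC lay lower on day 11 in every library by CPM, at −0.97, −1.27 and −0.63, with adjusted p-values of 0.222, 0.0625 and 0.226. THY1 passed with the sequencing lane as a term (adjusted p = 0.0306), in DESeq2 (0.00115) and with no low count filter (0.00205). Together with CCDC80, 4 of the 9 genes thus did not overlap between the days, where 24% of all genes tested did not. LUM and SPARC overlapped, at 1.80 (standard error 1.53) and 0.17 (standard error 0.34).

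The call of CCDC80 was lost without the plate 2 library of day 11 (adjusted p = 0.051) and without the plate 2 library or the library with no plate of day 9 (0.126 and 0.0683). It was also lost with no low count filter (0.0814), and without the plate 6 library of day 9 the log2 fold change was 4.32. Leaving out that same day 9 library moved LUM to 4.48 and DCN to 6.14, and LOX then passed the threshold (4.03, adjusted p = 0.0436). Without the plate 6 library of day 11, LUM was at 0.05, DCN at 2.92 and LOX at 1.86. POSTN was at 1.79 without the plate 2 library of day 11 and passed without the plate 5 library (3.12, adjusted p = 0.0239) and in DESeq2 (adjusted p = 0.00743). LOX passed with the lane as a term (2.82, adjusted p = 0.0274).

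Between day 11 and day 20, 0 of the 9 genes passed the adjusted threshold in edgeR, beside 1.55% of all 21398 genes (1.12% higher, 0.435% lower). At an unadjusted p-value under 0.05 there were 5, beside 3564 of all 21398 genes tested. DESeq2 called 3 (POSTN and LOX higher, CCDC80 lower), beside 1454 higher and 591 lower of the 48704 genes given to it. The log2 fold changes were 5.06 for POSTN (standard error 1.39, adjusted p = 0.117), 4.16 for DCN (standard error 1.75, adjusted p = 0.287) and 2.59 for LOX (standard error 0.79, adjusted p = 0.149). CCDC80 was at −2.30 (standard error 0.51, adjusted p = 0.0696) and TNC at −1.58 (standard error 0.56, adjusted p = 0.21). The libraries of the 2 days did not overlap in CPM for POSTN, CCDC80 and TNC, which is 3 of 9 beside 24.2% of all genes tested. LUM, VIM, SPARC and THY1 had log2 fold changes between −0.71 and 1.32 with adjusted p-values of 0.385 to 0.912.

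Several of those values moved with single libraries. Without the plate 6 library of day 20 the log2 fold change was 0.50 for DCN, 2.497 for POSTN, 1.79 for LOX and 0.04 for THY1, and it turned negative for LUM (−1.93) and SPARC (−0.75). VIM then stood at −1.42, and CCDC80 (−2.74) and TNC (−2.16) were lower still. Without the plate 6 library of day 11, DCN was at 5.56, LUM at 2.17 and LOX at 3.25. Without the plate 5 library of that day DCN was at 3.54 and LUM at −0.18, and without the plate 2 library POSTN was at 5.85. With the lane as a term LUM was at −0.25. Without the Plate_2_3 library, by contrast, each of the 9 kept its direction, with 5.58 for POSTN, 4.70 for DCN, 3.06 for LOX, −1.95 for CCDC80 and −1.15 for TNC, and adjusted p-values of 0.0524 to 0.773.

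Day 11 was last compared with day 4, a comparison that uses the same day 4 and day 11 libraries as those above. LUM, DCN, TNC, CCDC80, VIM and SPARC were higher and THY1 lower, 7 of 9 genes beside 46.9% of all 21187 genes tested (23.1% higher, 23.8% lower), and the median log2 fold change of the 9 was 2.78 against 0.04 over all genes. Those same 7 were the genes whose replicates did not overlap, beside 57% of all genes tested. LUM was 1630-fold higher (log2 fold change 10.67, standard error 1.59, adjusted p = 0.00159) and CCDC80 35.8-fold (5.16, standard error 0.35, adjusted p = 1.54e-05). The LUM fold again started from 24 counts over day 4, against 36459 over day 11. Over the alternatives its log2 fold change was 7.80 at the lowest. DCN went up by 7.73 on the log2 scale (standard error 1.66, adjusted p = 0.00802), from 8 counts over day 4 to 1653 over day 11, a ratio per library total of 244 (exact interval 123 to 565, counting error only). TNC was 73.7-fold and VIM 6.88-fold higher, SPARC 3.18-fold higher, and THY1 10.3-fold lower. LOX did not pass (1.49, standard error 0.55, adjusted p = 0.0584), nor did POSTN (1.17, standard error 0.95, adjusted p = 0.355). LOX passed without the plate 5 library of day 11 (1.91, adjusted p = 0.00233), with the lane as a term (1.31, adjusted p = 0.0216) and in DESeq2 (adjusted p = 0.00736), and was at 0.82 without the plate 6 library. POSTN was at 0.37 without the plate 2 library of day 11. Without the plate 6 library of day 11, LUM was at 8.89 and DCN at 6.32, without the plate 5 library of day 4 TNC was at 7.03, the call of DCN was lost without a low count filter (adjusted p = 0.0673) and that of SPARC in a fit of all 15 libraries (0.0686).

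**Figure D2:**
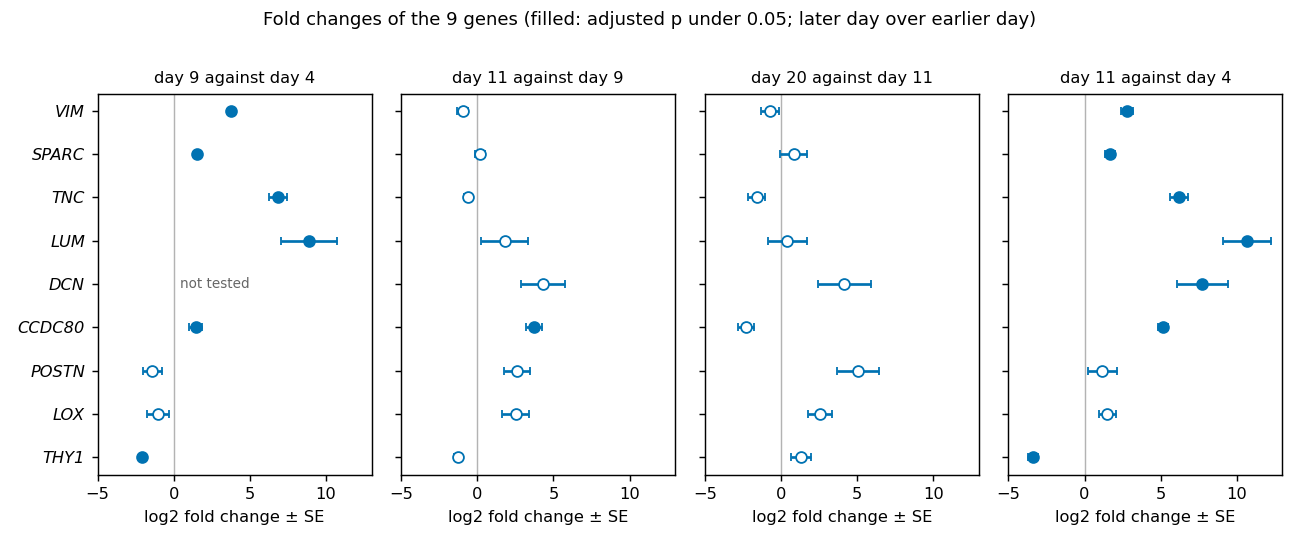
Log2 fold change of each gene in edgeR (horizontal axis, later day over earlier day) with its standard error as a bar, in 4 comparisons of 3 libraries against 3, where filled points have an adjusted p-value under 0.05. LUM and TNC lie farthest to the right on day 9 against day 4, CCDC80 is the only filled point on day 11 against day 9, and no point is filled on day 20 against day 11.

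The replicates of a day differed widely in these genes. On day 11 the plate 5 library was the lowest of the 3 in TPM for POSTN, DCN, LUM, VIM, SPARC and LOX, 6 of the 9, and the highest for CCDC80 and TNC. The same library was the highest for 8 of 8 cardiomyocyte markers, whose summed CPM was 25930 there, against 7732 in the plate 2 library and 5307 in the plate 6 library. It was also highest in summed CPM for wider fibroblast and mesenchymal markers (1691 against 1479 and 1480). So it was for elastic fibre genes (4259 against 1830 and 1672) and endothelial markers (294 against 152 and 110). Smooth muscle markers (1264 against 607 and 610) and the matricellular, lysyl oxidase and receptor lists were highest there as well. It was lowest for other small leucine-rich proteoglycans (42.05 against 171 and 82.4) and for epicardial and mesothelial markers (32.7 against 159 and 190). Also lowest there were endoderm and hepatic markers (447.5 against 839 and 1180), epithelial markers (3567 against 4681 and 5567) and pluripotency markers (1021 against 1552 and 1202). The plate 6 library of day 11 was highest for DCN, LUM, VIM, SPARC and LOX and lowest for THY1, CCDC80 and TNC. DCN differed 69-fold and LUM 29.7-fold between the highest and the lowest library of that day.

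On day 20 the plate 6 library was the highest for 9 of 9 genes and the lowest for 8 of 8 cardiomyocyte markers in TPM. Its summed CPM of cardiomyocyte markers was 6088, against 28110 in the plate 2 library and 12810 in Plate_2_3, and the summed CPM of the 9 genes was 10520, against 2451 and 671. Markers of other cell types moved as well: 6 epicardial and mesothelial markers summed to 447 CPM in the plate 6 library against 66.7 and 44.03, and 6 endothelial markers to 190 against 48.4 and 38.9. The 7 endoderm and hepatic markers summed to 13880 CPM in plate 6, 13070 in plate 2 and 256 in Plate_2_3, so they did not set plate 6 apart from plate 2. The summed CPM of the 17 wider fibroblast and mesenchymal markers did not either, at 1554, 1527 and 809. Such a sum can be dominated by the most abundant genes of a list. Smooth muscle markers were lowest in plate 6, at 400 CPM against 598 and 471, as were elastic fibre genes, at 2495 against 6580 and 2801. The part of these cell types in the values of the 9 genes was not tested.

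The Plate_2_3 library was the lowest of day 20 for 9 of 9 genes in CPM and 8 of 9 in TPM, where the plate 2 library was lower for DCN. Being lowest there was not particular to these genes. In summed CPM it was also lowest for epithelial markers (391 against 2989 in plate 2 and 3552 in plate 6) and pluripotency markers (54.7 against 144 and 112). For cardiomyocyte, smooth muscle and elastic fibre genes the plate 6 library was lower. LUM was level between plate 2 and Plate_2_3 in TPM, at 206 in each, but not in CPM, at 162 and 81.9. On day 9 the plate 6 library was the highest for 7 of the 9 genes, all but THY1 and SPARC, and also for the summed CPM of cardiomyocyte markers, at 835 against 391 and 278. DCN, LUM, VIM and LOX were highest in the plate 6 library on each of days 9, 11 and 20. The labels do not say whether libraries with the same plate number came from cells plated together.

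**Figure D3:**
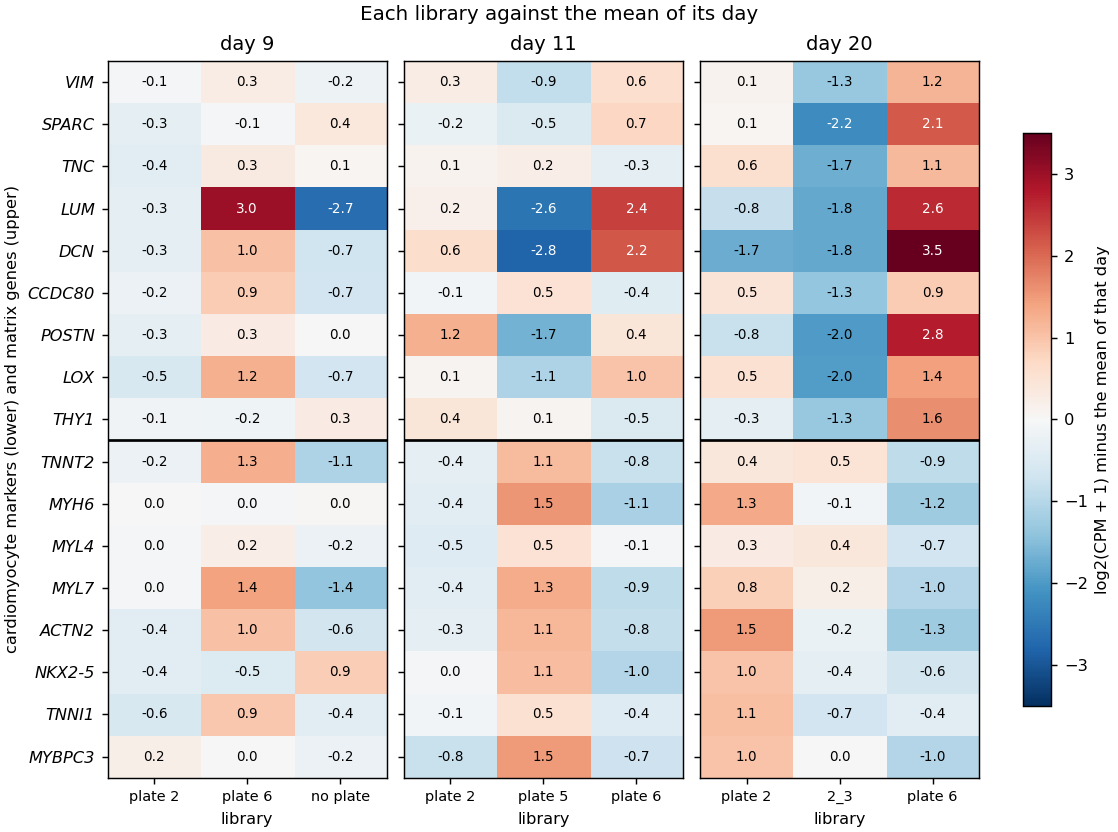
Deviation of each library from the mean of its day in log2(CPM + 1), for the 9 genes (upper rows) and 8 cardiomyocyte markers (lower rows), with a column for each library of days 9, 11 and 20. The plate 6 column of day 20 is positive for all 9 genes and negative for all 8 markers, and in the plate 5 column of day 11 the 8 markers are positive while DCN, LUM and POSTN are at −2.8, −2.6 and −1.7.

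As a measure of this spread, the SD of log2(CPM + 1) over the 3 libraries of a day had a median over the 9 genes of 0.35 on day 9, 0.77 on day 11 and 1.76 on day 20. Over all 23723 genes tested in any comparison the medians were 0.17, 0.23 and 0.49, and each of the 9 genes was above them on each of the 3 days. The widest members were LUM on day 9 (2.84), DCN on day 11 (2.55) and DCN on day 20 (3.06). TNC was at 0.35 and 0.29 on days 9 and 11 and at 1.52 on day 20. LUM was at least as wide on day 9 as on day 11 (2.47) and day 20 (2.30), while those of POSTN (0.30, 1.49 and 2.46), SPARC (0.35, 0.65 and 2.17) and DCN (0.90, 2.55 and 3.06) were larger on each later day.

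**Figure D4:**
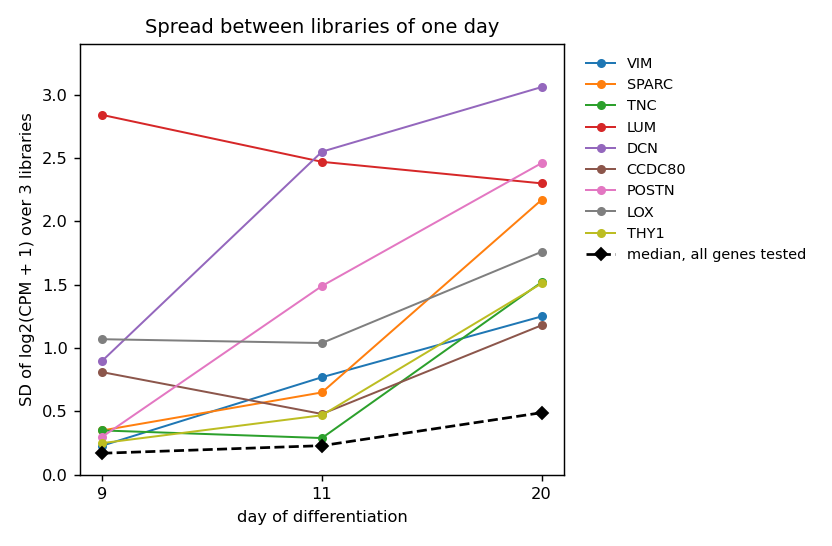
SD of log2(CPM + 1) over the 3 libraries of a day (vertical axis) for each gene on days 9, 11 and 20 (horizontal axis), with the median over all 23723 genes tested as black diamonds. All 9 lines lie above the diamonds on each day, and LUM is already at 2.84 on day 9.

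Genes of 6 wider lists, 86 in all, show how far other matrix and mesenchymal genes moved over the same days. From day 4 to day 9, 35 of the 78 genes tested rose and 7 fell, beside 24.3% and 24.7% of all genes tested, with a median log2 fold change of 0.57 against 0.01 over all genes. Fibroblast and mesenchymal markers had the most calls, with 12 of 16 higher and 0 lower (median 2.53). They included SNAI2, a transcription factor of epithelial to mesenchymal transition, from 0.514 to 120 TPM (log2 fold change 7.97, adjusted p = 8.47e-06), and PDGFRA, a receptor of early mesoderm and mesenchyme, from 2.73 to 585 TPM (7.78, adjusted p = 3.43e-05).

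Among elastic fibre and microfibril genes 9 of 15 rose and 1 fell, led by FBN2, a fibrillin of embryonic microfibrils, from 24.3 to 339 TPM (log2 fold change 3.85, adjusted p = 0.000286), and MFAP4 from 8.95 to 110 TPM (3.65, adjusted p = 6.17e-06). Of the matricellular genes 5 of 18 rose and 6 fell, shares near those of all genes. TGFBI, a secreted relative of periostin, rose from 10.77 to 90.7 TPM (3.05, adjusted p = 0.000642), while THBS2, a thrombospondin, fell from 30.6 to 0.340 TPM, a log2 fold change of −6.50 (adjusted p = 8.46e-06). Of the small leucine-rich proteoglycans other than DCN and LUM 3 of 8 rose, FMOD (fibromodulin) most, from 1.54 to 43.3 TPM (4.83, adjusted p = 0.000163).

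Of the genes for lysyl oxidases and collagen-processing enzymes, 2 of 14 rose and 0 fell, LOXL4 from 2.91 to 10.9 TPM (log2 fold change 1.93, adjusted p = 0.000273) and PCOLCE from 36.8 to 61.4 TPM (0.75, adjusted p = 0.00476). Of 7 integrin and syndecan genes, whose proteins bind fibronectin, periostin and tenascin, 4 rose and 0 fell. ITGA8, an integrin chain for RGD-bearing ligands, went from 0.0599 to 38.6 TPM (9.25, adjusted p = 0.00034) and ITGA5, the fibronectin receptor chain, from 37.7 to 155 TPM (2.09, adjusted p = 0.00513).

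From day 9 to day 11, 2 of 78 of the wider genes rose and 1 fell, beside 1.39% and 1% of all genes tested: SPP1, the matricellular protein osteopontin, from 8.24 to 53.0 TPM (log2 fold change 2.66, adjusted p = 0.0147), MFAP5 at a low level, from 0.241 to 1.59 TPM (2.65, adjusted p = 0.0482), and ELN, which encodes elastin, from 17.2 to 2.93 TPM (−2.62, adjusted p = 0.0103). Without the plate 2 library of day 9, 0 of all genes tested passed in that comparison, so these 3 calls were lost. From day 11 to day 20, 3 of 78 rose and 0 fell, beside 1.12% and 0.435% of all genes tested. LTBP2 and LTBP3, of the elastic fibre and microfibril list, rose from 4.91 to 18.1 TPM (1.77, adjusted p = 0.0292) and from 7.60 to 23.4 TPM (1.47, adjusted p = 0.0352). THBS2 rose from 0.423 to 6.25 TPM (3.76, adjusted p = 0.023). Without any 1 library of day 11, 0 of all genes tested passed as higher on day 20, so these 3 calls were lost as well. LTBP2 and LTBP3 each passed in 7 of 15 alternatives, with adjusted p-values of up to 0.203 and 0.256. MFAP5 and THBS2 were named because the counts are this small, after their values were seen. From day 4 to day 11, 42 of 81 were higher and 8 lower, beside 23.1% and 23.8% of all genes tested.

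**Figure D5:**
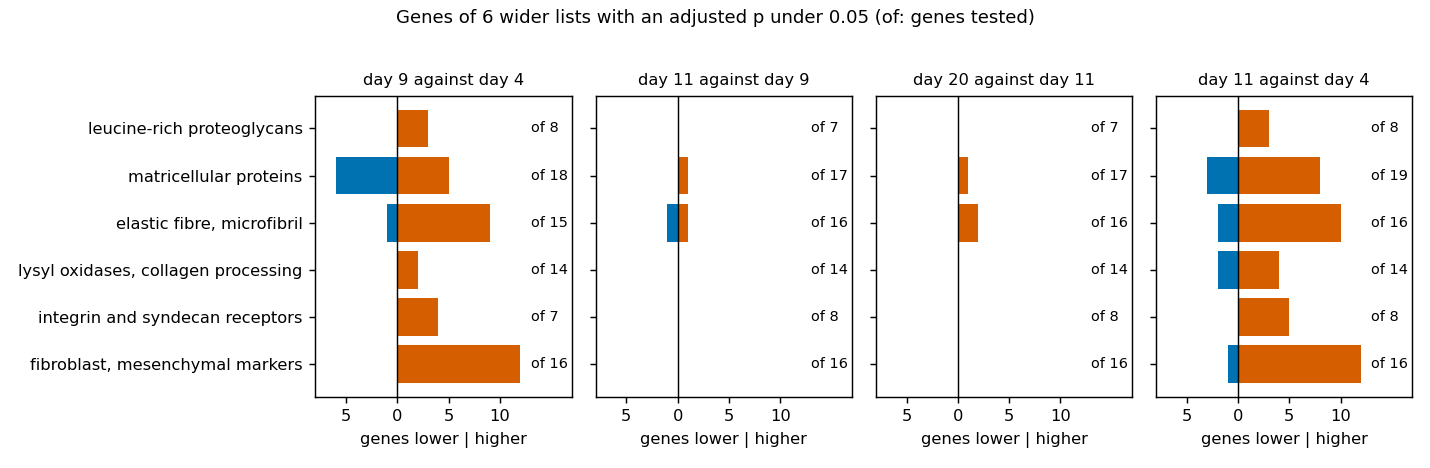
Number of genes (horizontal axis) of 6 wider matrix and mesenchymal lists that were higher (right, orange) or lower (left, blue) on the later day at an adjusted p-value under 0.05 in edgeR, with the number tested beside each bar. Day 9 against day 4 has 12 of 16 fibroblast and mesenchymal markers higher, and days 11 and 20 add at most 2 genes a list.

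The genes nearest to each member in pattern were sought among 12453 genes that reached a mean of 10 CPM on at least a day, as the root mean square difference of centred log2(CPM + 1) over the 15 libraries. LUM lay nearest in pattern to the imprinted genes H19 (0.89) and IGF2 (0.92), and then to GUCY1A1 (1.00). DCN lay nearest to NPNT (0.96), AQP1 (1.01) and FGG (1.19), and POSTN to OLR1 (0.93), LOX (0.97) and FABP1 (1.01). FGG and FABP1 are known as liver genes. SPARC lay near PDGFRB (0.37), the receptor of pericytes and mural cells, after ATP7B (0.29) and before FAM107B (0.40).

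VIM lay nearest to RNF152 (0.39), LRP2 (0.45) and NDNF (0.47), and TNC to SYTL5 (0.73), LINC00261 (0.78) and FOXA1 (0.83), of which FOXA1 is an endoderm transcription factor. CCDC80 lay nearest to OIT3 (0.52), WNT2 (0.62) and CGA (0.71), and LOX to GABRA2 (0.56), SERPINA6 (0.65) and SFXN3 (0.66). THY1 lay near FAM171B (0.55) and TTC9 (0.56). These distances depend on the range of each gene as well as its shape, and with days and plates shared by all genes they are given as descriptions.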

How the data were processed

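Bulk RNA-seq of 15 libraries was analysed, grouped by the day in the labels. The authors mapped paired-end reads of rRNA-depleted total RNA with STAR 2.5.2b (GRCh38, Ensembl release 79), took out genes for ribosomal RNA and the mitochondrion and deposited raw counts per gene from featureCounts 1.5.1. TPM were computed from these counts by the authors, who do not state the gene lengths used. RNA integrity (a score), the fraction of reads mapped uniquely (35% to 86%) and the lane come from the sample table that the authors deposited.

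Days were compared on the counts in edgeR 4.0.16 (R 4.3.3) with the robust quasi-likelihood test, two-sided, after TMM scaling and filterByExpr (minimum count 10, minimum total count 15). A fit held the 6 libraries of its 2 days, with Benjamini-Hochberg adjustment across every gene tested in it. The standard error is the log2 fold change divided by the square root of F. TPM are means ± SD of the deposited values. Symbols, exons and coordinates came from GENCODE v44, tables were made in Python 3.11.15, and the code was tested on simulated data. The members and lists were chosen with earlier results of these data known. Named genes were the members in every comparison, at most 2 genes per list and comparison with the largest change among those past the threshold that reached a mean of 10 CPM, and the 3 genes nearest to each member, of which 1 is not reported here. Alternatives were DESeq2 1.42.0, RLE size factors, no low count filter, a filter on a mean CPM of 1, a fit of all 15 libraries, limma 3.58.1 on log2 TPM after adding 1 or 0.1, each library left out, an adjusted p-value under 0.01, and lane or plate as a block. Depth and the spread between replicates set each standard error, and counting intervals cover counting error only.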

Additional observations from a re-analysis of the deposited data

How the results depend on the processing

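Of 607 log2 fold changes of the members under alternatives, 542 kept their direction and their side of the threshold, 12 lost the call, 27 gained it and 26 changed sign. Of the sign changes, 19 belonged to day 4 against day 0, where no value passed the threshold. There, leaving out single libraries gave ranges of −0.48 to 0.51 for POSTN, −0.11 to 0.56 for VIM, −0.59 to 0.27 for THY1, −0.08 to 0.37 for CCDC80, −0.13 to 0.12 for SPARC and −0.41 to 0.12 for LOX. POSTN was at −0.09 with limma on log2(TPM + 0.1), and SPARC at 0.04 with limma after adding 0.1 or 1 and at 0.0 in the fit of all 15 libraries or without a low count filter. For day 20 against day 11, LUM was at −0.25 with the lane block and ranged from −1.93 to 2.17 over single libraries left out, and SPARC from −0.75 to 1.33. For day 11 against day 9, SPARC ranged from −0.30 to 0.39.

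The count of members past the threshold stayed within 1.5 times on day 9 against day 4, where it was 5 to 7 without single libraries, on day 11 against day 4 (7 to 8) and on day 4 against day 0 (0). On day 11 against day 9 it was 1, and became 3 with DESeq2 or the lane block, 0 at an adjusted p-value under 0.01 and 0 to 2 without single libraries. On day 20 against day 11 it was 0, and became 3 with DESeq2 or the fit of all 15 libraries, 1 with limma after adding 1 or 0.1, and 0 without any single library. The cause of these moves was not tested. Over all genes DESeq2 called 919 higher and 676 lower on day 11 than on day 9, and 1454 and 591 on day 20 than on day 11.

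Plate numbers were used as a replicate block. The deviations of libraries with the same plate number from their day means were correlated across genes. For day 11 and day 9, r was 0.191 for plate 2 and 0.412 for plate 6. For day 20 and day 11 it was −0.187 and −0.034 for plate 2 and 0.416 for plate 6. For day 11 and day 4 it was −0.146 for plate 2 and 0.089 for plate 5. Whether a shared number marks shared cells was not tested. With the replicate block, 6 members passed on day 11 against day 9 (DCN, POSTN, LUM and LOX higher, VIM and THY1 lower, adjusted p-values of 9.99e-07 to 0.0159) and CCDC80 no longer did (0.0857). That day difference rests on the plate 2 and plate 6 pairs alone. With so few pairs, its adjusted p-values lean mostly on spread modelled over all genes rather than on that of each gene. The plate 5 library of day 11 and the day 9 library with no plate had no partner and added nothing to it. Under the block LUM was at −0.33 on day 20 against day 11 and POSTN at −0.07 on day 11 against day 4. Over all genes the block gave 1171 higher and 800 lower on day 11 against day 9 and 2 and 1 on day 20 against day 11.

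Genes with an implied length under 200 bases held 29.2% of the TPM of a day 0 library and 22.7% of a day 9 library. Leaving them out moved 3 of 45 mean TPM by more than 1 SD, to 17.1 for THY1 on day 9, 378 for SPARC and 4.19 for LOX on day 0. Without the Plate_2_3 library the median SD between replicates over the members was 1.37 on day 20, and with log2(CPM + 0.1) it was 0.55, 0.77 and 1.81 on days 9, 11 and 20, beside 0.26, 0.33 and 0.67 over all genes. Below about 10 counts per library, as for DCN up to day 4 and about so for LUM on day 4 (6 to 11 counts), no fold change could be set closely.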
